A study of Mus musculus with 6 samples.

Results

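The RNA-seq table of mouse Achilles tendon held a row for each annotated microRNA (miRNA) gene beside the rows of ordinary genes, and the 107 of these rows with the most reads are described here. They were chosen by name (Mir or Mirlet followed by a digit, without the host gene names that end in hg) and by a limit of 30 or more reads summed over the 3 RNA-seq libraries. The table listed 1186 miRNA gene rows among 54189 rows, of which 568 others had 1 to 29 reads and 511 had none. Because the summed reads chose the rows, their levels are given as a description. Just inside the limit were Mir7001 with 32, Mir382 with 31 and Mirlet7d with 30 reads, and just outside it were Mir341, Mir667 and Mir668 with 29 each. A row of the same symbol existed in the small RNA-seq table for 106 of the 107 rows. Mir5117 had none, and GENCODE vM21 lists this gene as a snoRNA.

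Achilles tendon of mice at 4 weeks of age was measured in 3 genotypes. Control mice carried floxed Dicer alleles without Cre (Dicer f/f), ScxHt mice carried the ScxCre/+ knock-in with intact Dicer (Dicer +/+), and Dicer cKO mice carried ScxCre/+ together with Dicer f/f. The Cre was knocked in at Scx, the gene of a tendon transcription factor, so ScxHt and Dicer cKO mice shared an altered Scx allele and cells outside the Scx lineage kept their Dicer. Each genotype gave 1 sample, from which 1 RNA-seq and 1 small RNA-seq library were made, so a difference between genotypes cannot be told apart from a difference between samples and no test was possible.

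An miRNA is transcribed as a long primary transcript, often as part of an intron or exon of a host gene. In the nucleus DROSHA and its partner DGCR8 cut out the hairpin, exportin 5 carries it to the cytoplasm, and DICER cuts off the loop to leave a short duplex, of which 1 strand enters an Argonaute protein. The mature strand finds its targets mainly through its seed, bases 2 to 8. Small RNA-seq counts these short products. An RNA-seq read over a hairpin row can come from a primary transcript, from spliced RNA of an overlapping exon or from an unprocessed hairpin. Another small RNA gene at the same place, such as a snoRNA, can also give reads, and these sources are not separated. The comparison asked whether hairpin reads in RNA-seq were higher where small RNA reads of the same gene were lower.

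The RNA-seq libraries held 14959399 to 16244232 reads and the small RNA-seq libraries 8435829 to 10986541. Where 3 counts are given without names they stand for Control, ScxHt and Dicer cKO in that order. Dicer1, the targeted gene, had 1919, 2025 and 1621 reads, and its ratio between Dicer cKO and Control was 0.877 (0.821 to 0.938). This row covers the whole gene, and loss of the floxed exons in part of the cells was not tested. Ratios are of reads divided by DESeq2 size factors of both libraries, and ranges in parentheses are 95% exact intervals, which cover counting error only. Reads are not independent molecules, so the true uncertainty is wider. Against 10 reads in 1 library, 23 in the other were needed for an interval off 1, against 40 reads 61, and against 100 reads 131. The term baseMean stands for the mean of both normalized counts. Of the tendon genes, 5 of 7 (Scx, Tnmd, Mkx, Fmod, Thbs4, Col1a1 and Dcn) were below a ratio of 0.60 for Dicer cKO/Control. Of all rows with a baseMean above 50, 4.17% were. The tendon list was detected in every library. All 10 skeletal muscle genes had intervals above 1 for Dicer cKO/Control, with a median log2 ratio of 0.85, beside 19.6% of rows with 30 or more reads. In the same comparison all 5 erythroid genes exceeded 1/0.60, beside 3.92% of rows with a baseMean above 50. For ScxHt/Control all 5 endothelial genes had intervals below 1, with a median log2 ratio of -0.62, beside 21.1% of rows with 30 or more reads.

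For 100 of the 107 rows RefSeq (GRCm38.p6) gave sequences. The 3 hairpins shown first are those of the 2 rows with most RNA-seq reads and of Mir99a. For Dicer cKO/Control, Mir99a was the 1 gene with the hairpin above and the small RNA below 1. Capitals mark the mature arms that RefSeq lists, 2 each for Mir675 and Mir99a and 1 for Mir5121. The other arm of Mir5121 is therefore in lower case too, beside the stem ends and loop that DROSHA and DICER remove.
Mir675, chr7:142577064-142577147, minus strand: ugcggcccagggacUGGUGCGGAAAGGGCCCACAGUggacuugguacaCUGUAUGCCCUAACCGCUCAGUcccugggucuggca
Mir5121, chr7:45126918-45126991, minus strand: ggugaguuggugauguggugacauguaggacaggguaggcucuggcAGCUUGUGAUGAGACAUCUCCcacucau
Mir99a, chr16:77598936-77599000, plus strand: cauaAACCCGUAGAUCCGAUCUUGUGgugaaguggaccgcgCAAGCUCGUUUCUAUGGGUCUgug

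The mature strands below belong to the 5 genes whose intervals lay on opposite sides of 1 in the Dicer cKO and Control libraries of both assays, with the seed in capitals. No seed was shared among them.
miR-99a-5p: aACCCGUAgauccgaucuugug
miR-679-5p: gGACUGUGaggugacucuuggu
miR-494-3p: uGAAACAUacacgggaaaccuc
miR-126a-3p: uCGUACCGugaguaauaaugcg
miR-323-3p: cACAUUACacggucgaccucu

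A further 6 genes had intervals above 1 in both assays for Dicer cKO/Control, and an arm of each is shown to set them beside the first set.
miR-335-5p: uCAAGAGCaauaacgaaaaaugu
miR-30c-5p: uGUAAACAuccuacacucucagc
miR-300-3p: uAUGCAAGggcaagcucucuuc
miR-496a-3p: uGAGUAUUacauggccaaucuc
miR-337-5p: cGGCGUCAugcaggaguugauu
miR-6236: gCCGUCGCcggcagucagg

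Only 4 seeds of mature strands were shared by 2 or more of the rows with RefSeq sequences, 9 genes in all. The largest such group was let-7, the family named for a timing gene of worms, of which Mirlet7d, Mirlet7e and Mirlet7f-1 share the seed GAGGUAG. The RefSeq entry of Mirlet7a-2 lists its 3p arm only.
let-7f-5p: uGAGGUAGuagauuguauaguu
let-7e-5p: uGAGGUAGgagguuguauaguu
let-7d-5p: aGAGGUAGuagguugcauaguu

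The 107 rows together held 6971, 6208 and 7698 reads, which is 0.0429%, 0.0394% and 0.0515% of all RNA-seq reads. The distribution was steep. Mir5121 and Mir675 together held 39.7%, 32.4% and 45.6% of these reads in the 3 libraries, whereas the median row had 66 reads in all libraries together, 41 rows had fewer than 50 and 30 had 100 or more. In the 3 libraries pooled, 20 rows had more than 50% of their reads in a single library. The annotated hairpins were 54 to 139 bases long with a median of 82.

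Among these rows a high RNA-seq count did not go with many small RNA reads. Over the 106 rows with both, Spearman's rho of the summed reads was -0.03, given as a description across genes that share the same libraries. The 10 rows with most RNA-seq reads had at most 71 small RNA reads each over all 3 libraries, and 24 of the 106 had none. A count of 0 allows up to 3 reads in a small RNA-seq library, or 0.273 to 0.356 CPM (reads scaled to the library total). At the other end, 18 rows had more than 10000 small RNA reads, and these had 30 to 165 RNA-seq reads, a median of 6.32 RNA-seq reads for every 10000 small RNA reads. The lower end of 30 is the limit that chose the rows, so rho, this range and this median hold only for rows above it. Altogether 83 miRNA genes had more than 10000 small RNA reads, so 65 of them did not reach 30 RNA-seq reads. Among the 20 miRNA genes with most small RNA reads, Mirlet7a-2, Mirlet7f-1, Mir1a-1 and Mir126a were included here, and the median of the 20 in RNA-seq was 10 reads. Loci that give the same mature strand, such as Mirlet7f-1 and Mirlet7f-2, can share small RNA reads: these had 798456 and 831859 small RNA reads but 120 and 0 RNA-seq reads.

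**Figure D1:**
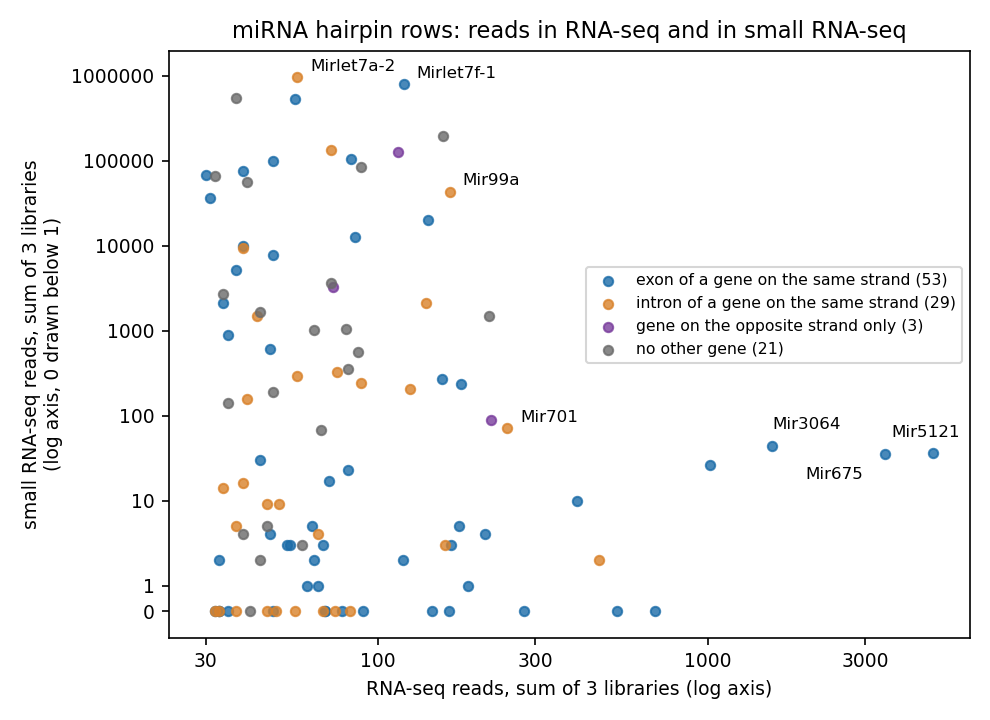
RNA-seq reads (x axis) against small RNA-seq reads (y axis), each summed over 3 libraries on log axes, for the 106 rows found in both tables, coloured by position relative to annotated genes. The 10 rows with most RNA-seq reads lie at the lower right with at most 71 small RNA reads, and the 18 rows with more than 10000 small RNA reads lie at the upper left with 30 to 165 RNA-seq reads. The lower end of 30 is the limit that chose the rows.

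Most of the reads fell on hairpins that overlap annotated exons of longer genes. An overlap with an exon of any annotated transcript counted, so such a hairpin can lie in an intron of other transcripts. By GENCODE vM21, 54 rows overlapped an exon of a longer gene on the same strand and held 79.2% of the reads, 29 lay in an intron and held 12.1%, 3 were opposite Rtl1 only and held 1.96%, and 21 overlapped no longer gene and held 6.77%. By number of rows, presence in small RNA-seq ran the other way. There baseMean exceeded 15 for 17 of the 54 exonic, 12 of the 29 intronic, all 3 antisense and 16 of the 21 other rows. These are counts of rows, and small RNA reads were not summed by position. The RPKM values deposited for each library multiplied by the annotated length gave the reads before rounding. They came out whole, within 0.02 reads, in all 3 libraries for 38 rows. These were 7 of the 54 exonic, 23 of the 29 intronic, 0 of the 3 antisense and 8 of the 21 other rows, and the remaining rows held fractions of reads. How fractions of a read came about is not given in the sources used here. The strand setting is not given either, so reads of the sense and antisense strand cannot be told apart.

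Of the 10 rows with most reads, 8 lay in an exon of a longer gene and 2, Mir6546 and Mir701, in an intron. Mir5121, in an exon of the ribosomal protein gene Rpl13a, had 1790, 1504 and 1544 reads. The annotated small RNA gene Snord33 also overlaps this hairpin, and its part in these reads was not tested. Mir675, in an exon of the imprinted long noncoding RNA H19, had 977, 506 and 1966 reads. Both miRNAs were close to absent from small RNA-seq, with 11, 16 and 9 reads for Mir5121 and 14, 8 and 13 for Mir675. In RNA-seq Mir675 was thus lowest in ScxHt and highest in Dicer cKO, while Mir5121 was highest in Control. Mir3064, in an exon of the RNA helicase gene Ddx5 on chr11:106782693-106782759, had 457, 556 and 554 reads. Mir6950, in an exon of the lysyl oxidase gene Loxl2 on chr14:69692248-69692320, had 343, 424 and 249. Mir8094, in the splicing helicase gene Ddx39b, had 190, 264 and 239 RNA-seq reads and 0 small RNA reads in each library. Mir1906-1, in an exon of the imprinted noncoding RNA Meg3, had 531 RNA-seq reads in all and likewise 0 small RNA reads, with an RNA-seq ratio of 0.684 (0.55 to 0.849) for ScxHt/Control. Mir6546, in an intron of the Fc receptor gene Fcgr3 of macrophages, had 179, 179 and 110 reads. Relative to Control this row stood at 0.638 (0.499 to 0.814) in Dicer cKO and at 0.958 (0.775 to 1.19) in ScxHt. Of the 5 macrophage genes counted, 3 had intervals below 1 in Dicer cKO and all 5 above 1 in ScxHt, the latter with a median log2 ratio of 0.78. Of all rows with 30 or more reads, 24.2% and 22.5% did so. The part of these macrophage genes in the Mir6546 row was not tested. Mir5114 in an exon of the desaturase gene Scd2 had 134, 151 and 117 reads, Mir568 in an exon of the transcription factor gene Zbtb20 had 114, 95 and 69, and Mir701 in an intron of Ttc28 had 102, 75 and 70. Mir701 was the only 1 of these 10 whose baseMean exceeded 15 in small RNA-seq.

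In the Dicer cKO library the median hairpin row was close to that of all rows relative to Control. Of the 24 rows with a baseMean above 50, 3 exceeded 1/0.60 (1.67) and 2 were below 0.60, against 3.92% and 4.17% of all 13504 rows tested. The 3 higher rows were Mir675 at 2.09 (1.93 to 2.26), Mir6236 at 2.80 (2.01 to 3.96) and Mir99a at 2.25 (1.5 to 3.41), and the 2 lower rows were Mir5117 at 0.541 (0.355 to 0.811) and Mir5125 at 0.593 (0.4 to 0.87). On the log2 scale the middle row of the 24 stood at 0.03 and that of all 13504 at -0.03. Over all 107 rows, 18 intervals lay above 1 and 15 below it, whereas 19.6% and 24.2% of the 18514 rows with 30 or more reads did so. Those 18514 rows had a median of 488.5 summed reads against 66 for the hairpins, and more reads give narrower intervals. The 204 other rows of at most 150 bases with 30 or more reads, whose median was 64, had 29 intervals above and 30 below 1. Pooled reads of the 107 rows gave a ratio of 1.15 (1.11 to 1.18), which became 1.03 (0.991 to 1.08) without Mir5121 and Mir675.

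The ScxHt library, with Cre and intact Dicer, was low in more of these rows. Of 22 rows with a baseMean above 50, 0 exceeded 1/0.60 and 3 were below 0.60, against 3.07% and 4.73% of all rows tested, and the middle row stood at -0.15 on the log2 scale where that of all rows was 0.02. Over the 107 rows 8 intervals lay above and 29 below 1, beside 22.5% and 21.1% of rows with 30 or more reads. The 204 other short rows had 9 above and 38 below, with a median log2 ratio of -0.17 beside -0.16 for the 107. For Dicer cKO/ScxHt, 4 of 20 rows exceeded 1/0.60 and 1 was below 0.60, against 7.68% and 5.68%. There 25 intervals of the 107 lay above and 8 below 1, beside 22.8% and 25.6%, and 40 and 15 of the 204 other short rows did so. Their median log2 ratios were 0.19 and 0.21. Rows of snoRNA and scaRNA genes, short RNAs that need no DICER, had a median over 35 rows of 0.12 where Dicer cKO was set against Control, -0.06 where ScxHt was, and 0.26 where Dicer cKO was set against ScxHt. The 4 miRNA host gene rows whose names end in hg had medians of 0.11, 0.01 and 0.21 in the same order. The 3 comparisons share libraries, so their values are not independent of each other.

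Hairpins and small RNAs were then set side by side for the 48 genes whose small RNA baseMean exceeded 15 for Dicer cKO/Control. In RNA-seq 8 of them had intervals above and 7 below 1, beside 19.6% and 24.2% of rows with 30 or more reads. In small RNA-seq 21 had intervals above and 16 below 1, beside 31.1% and 31.7% of all 334 small RNA rows tested. The median log2 ratio in small RNA-seq was 0.05 for these genes and -0.02 for the 334. A hairpin interval above 1 met a small RNA interval below 1 in 1 gene, Mir99a. The opposite, hairpin below and small RNA above 1, was seen for 4 genes, both above 1 for 6 and both below 1 for 1 (Mirlet7e). By point values alone, 11 genes had a higher hairpin and a lower small RNA ratio, 13 the opposite, 15 were above 1 in both and 9 below 1 in both. Most hairpin intervals were wide, and 33 of the 48 held 1. The count of each pattern depends on how many intervals left 1 in each assay, and an excess of any pattern was not tested.

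Mir99a lies in an intron of Mir99ahg, the noncoding host gene that it shares with let-7 and miR-125 relatives, and its mature miR-99a-5p belongs to a family known to target the mTOR pathway. Its RNA-seq row had 37 reads in Control, 48 in ScxHt and 80 in Dicer cKO. In small RNA-seq Mir99a had 23215, 10685 and 9254 reads. The Dicer cKO library was thus the highest in RNA-seq and the lowest in small RNA-seq, and the ScxHt library lay between the other two in both. The Dicer cKO/Control ratios were 2.25 (1.5 to 3.41) for the hairpin and 0.457 (0.446 to 0.468) for the small RNA. Between ScxHt and Control they were 1.24 (0.793 to 1.96) and 0.519 (0.507 to 0.531), so the small RNA was also low with intact Dicer. The host row Mir99ahg had 1718, 1778 and 1609 reads, and the hairpin relative to it stood at 2.31 (1.53 to 3.53) between Dicer cKO and Control. All 3 RNA-seq counts of Mir99a were whole before rounding. GENCODE also places the gene Gm11146 on the opposite strand there.

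The 4 genes with the opposite pattern for Dicer cKO/Control had few hairpin reads. Mir679, in the imprinted Dlk1-Dio3 region, had 40, 23 and 18 RNA-seq reads in Control, ScxHt and Dicer cKO and 116, 106 and 135 small RNA reads. The ratios were 0.467 (0.252 to 0.834) and 1.33 (1.03 to 1.72). Mir494 of the same region had 34, 29 and 17 RNA-seq reads and 310, 345 and 387 small RNA reads, with ratios of 0.519 (0.272 to 0.956) and 1.43 (1.23 to 1.67). Mir323, also there, had 23, 2 and 10 RNA-seq reads and 37, 46 and 57 small RNA reads, with ratios of 0.452 (0.192 to 0.986) and 1.77 (1.15 to 2.75). In all 3 the Control library was highest in RNA-seq and, after scaling, lowest in small RNA-seq. Mir126a, the endothelial miRNA within the vessel gene Egfl7, had 32, 9 and 15 RNA-seq reads and 201949, 150234 and 180654 small RNA reads. It counts as exonic here because an exon of at least 1 annotated transcript overlaps it. Its ratios were 0.487 (0.245 to 0.925) and 1.03 (1.02 to 1.03), so the small RNA moved by little although its interval left 1. Egfl7 itself had 670, 456 and 592 reads, and the interval of the hairpin relative to it, 0.264 to 1.02, held 1. The endothelial genes, Egfl7 among them, were low in ScxHt as this hairpin was, and their part in the result was not tested. For ScxHt/Control the interval of the hairpin relative to Egfl7 lay below 1, so the hairpin was low beyond its host there.

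**Figure D2:**
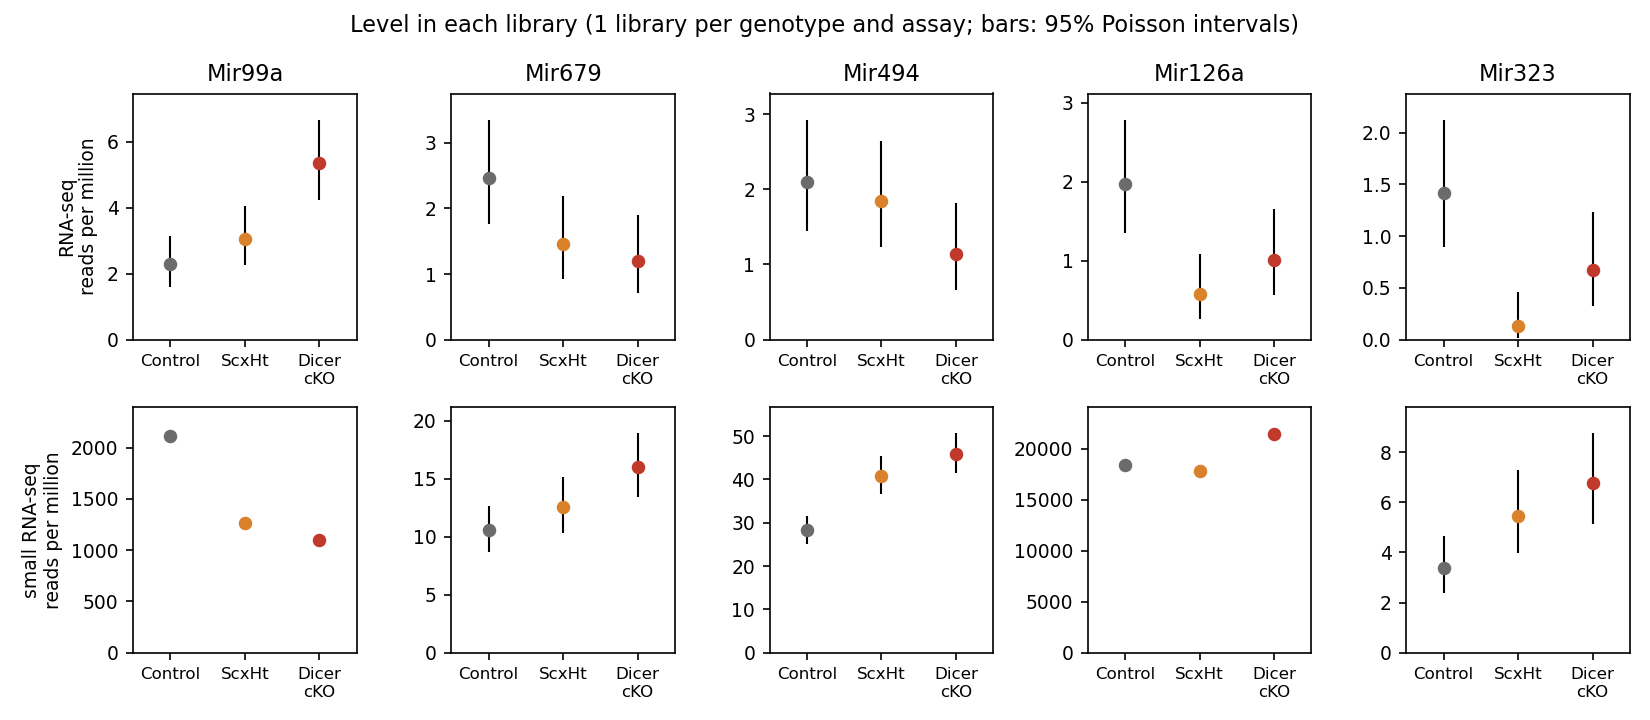
CPM (reads scaled to the library total, linear axes from 0) in RNA-seq (top) and small RNA-seq (bottom) for the 5 genes with intervals on opposite sides of 1 in Dicer cKO/Control; each point is 1 library and bars are 95% Poisson intervals. Mir99a is highest in Dicer cKO in the top row and lowest there in the bottom row, and the other 4 are highest in Control in the top row.

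In 6 genes both assays were higher in Dicer cKO. Mir335, in an intron of the imprinted gene Mest, had 5, 17 and 17 RNA-seq reads and 2262, 2203 and 4847 small RNA reads in Control, ScxHt and Dicer cKO. The Dicer cKO/Control ratios were 3.53 (1.25 to 12.2) and 2.46 (2.34 to 2.58), and Mest itself had 241, 295 and 380 reads and a ratio of 1.64. Mir6236, which overlaps no annotated gene on chr9:110281287-110281409, had 50, 32 and 135 RNA-seq reads and 440, 458 and 574 small RNA reads. Mir300 and Mir496a, both of the Dlk1-Dio3 region, had 14, 22 and 36 and 27, 41 and 57 RNA-seq reads, with ratios of 2.67 (1.41 to 5.36) and 2.19 (1.36 to 3.61). Their small RNA ratios were 1.10 (1.01 to 1.19) and 1.43 (1.02 to 2.01). Mir30c-2 had 20, 29 and 36 RNA-seq reads and small RNA reads of 3795, 4111 and 4630, and Mir337 had 9, 5 and 20 and 776, 877 and 1014. Small RNA reads of Mir30c-2 can be shared with Mir30c-1, which also gives a mature strand of this gene. Mirlet7e, the gene below 1 in both, had 42, 14 and 16 RNA-seq reads in an intron of Spaca6 and 46297, 46539 and 39739 small RNA reads, a small RNA ratio of 0.984 (0.971 to 0.997).

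The comparison of ScxHt with Control gave no gene with the hairpin above and the small RNA below 1 among 49 genes tested. It gave 6 with the opposite pattern, namely Mir701, Mir6236, Mir22, Mir27b, Mirlet7e and Mir133a-2. Hairpin intervals lay above 1 for 3 and below 1 for 15 of the 49, beside 22.5% and 21.1% of RNA-seq rows with 30 or more reads. Small RNA intervals lay above 1 for 15 and below 1 for 14 of the 49, beside 24.4% and 32.8% of all small RNA rows tested. For Dicer cKO/ScxHt the hairpin was above and the small RNA below 1 for 3 of 48 genes, Mir99a, Mir22 and Mir24-1, and the opposite was seen for 0. There 14 hairpin intervals lay above and 2 below 1, beside 22.8% and 25.6% of RNA-seq rows with 30 or more reads. Of the small RNA intervals, 13 lay above and 15 below 1, beside 25.8% and 33.9%. Hairpin intervals above 1 were few for ScxHt/Control, as were those below 1 for Dicer cKO/ScxHt. Few genes could therefore show the pattern that was missing in each comparison. Mir22, a miRNA of many tissues in an exon of its host Mir22hg, had 53, 33 and 56 RNA-seq reads and 6168, 7786 and 6253 small RNA reads, so its ScxHt library was low in RNA-seq and high in small RNA-seq while Control and Dicer cKO lay close together. Mir24-1 had 13, 11 and 24 RNA-seq reads and 32083, 36750 and 30239 small RNA reads. Mir24-2 also gives a mature strand of this gene, so these small RNA reads can be shared between both loci. Mir99a had ratios of 1.84 (1.27 to 2.68) for the hairpin and 0.866 (0.842 to 0.891) for the small RNA in this comparison.

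**Figure D3:**
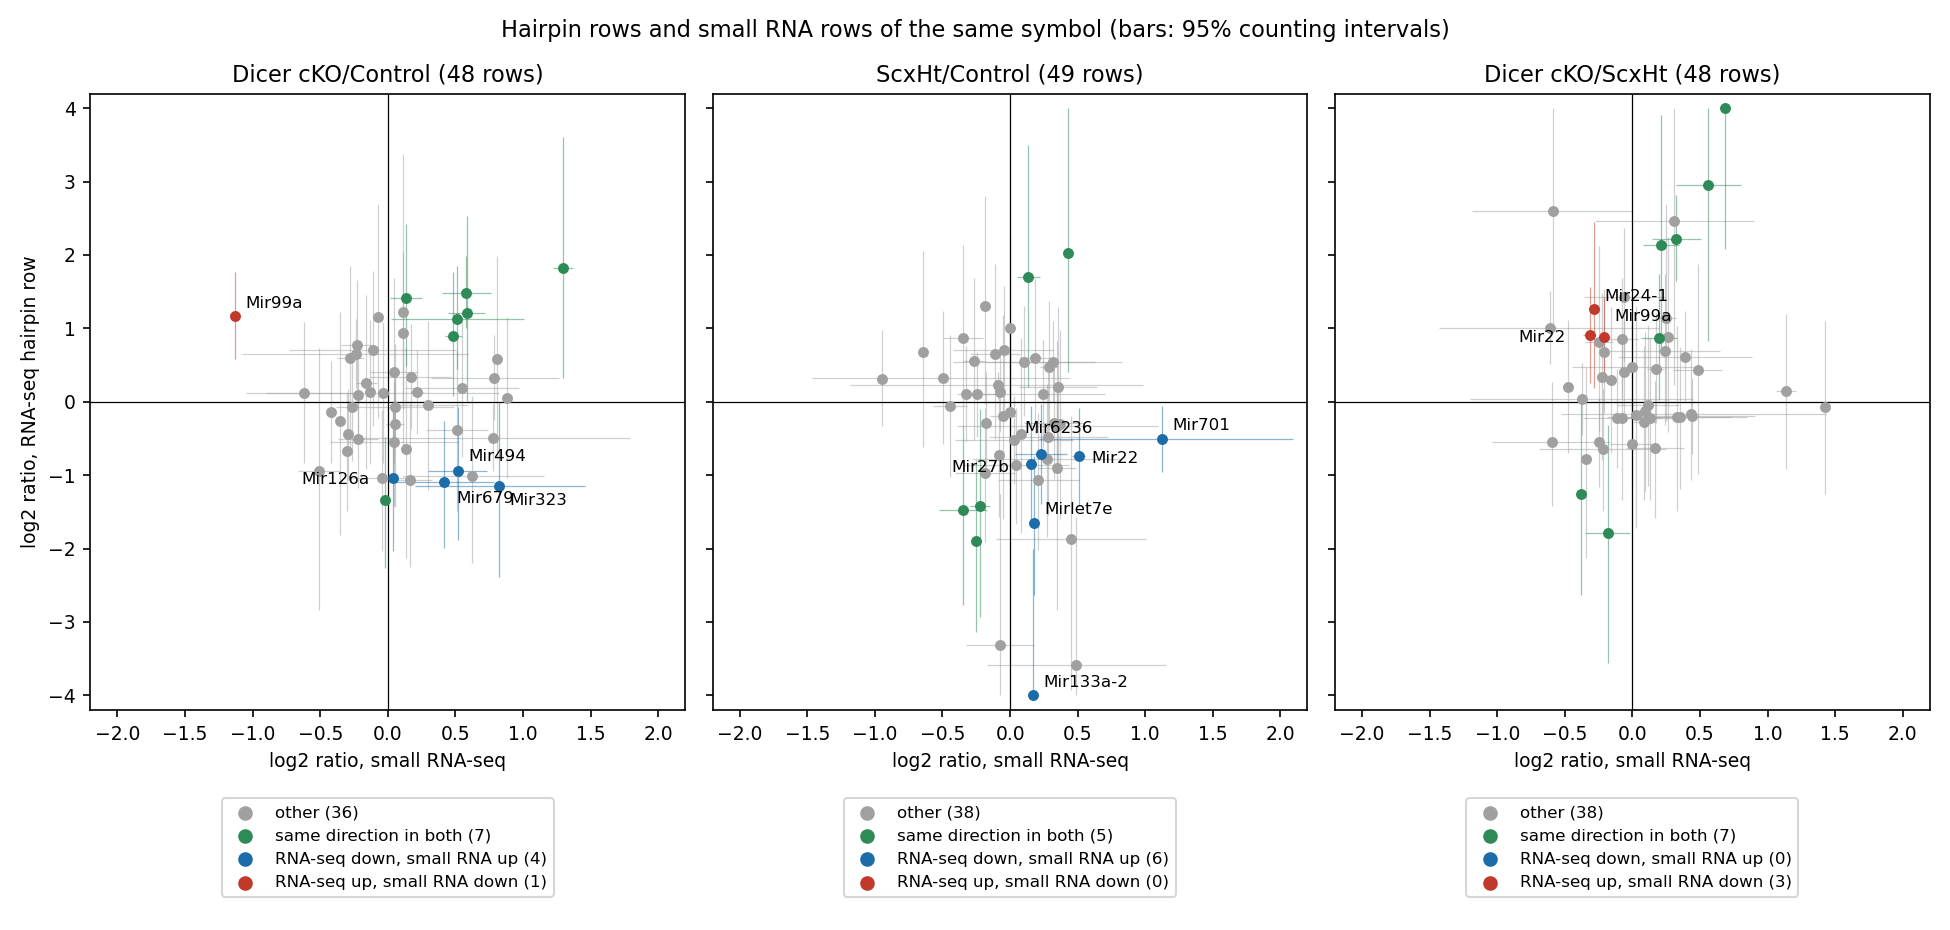
Log2 ratio of the RNA-seq hairpin row (y axis) against that of the small RNA row of the same symbol (x axis) for 48, 49 and 48 genes with small RNA baseMean above 15 in 3 comparisons; bars are 95% counting intervals, cut off at the plot edge, and points on the edge had 0 reads in 1 library. Mir99a is the single point at the upper left for Dicer cKO/Control, no point of that kind is marked for ScxHt/Control, and 3 are marked for Dicer cKO/ScxHt.

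For most hairpin rows the ratio relative to the gene they lie in could not be separated from 1 at this depth. A row of the host gene was present for 73 of them, 46 exonic and 27 intronic. For Dicer cKO/Control the interval of the hairpin relative to its host held 1 in 57 of 73, in 41 of 46 exonic and 16 of 27 intronic rows. Mir675 and H19 (11990, 6343 and 23386 reads) had ratios of 2.09 and 2.03, Mir5121 and Rpl13a (4394, 4358 and 3905) 0.896 and 0.923, and Mir6950 and Loxl2 (23346, 23096 and 16405) 0.754 and 0.730. Exonic rows can share reads with their host, so both ratios of such a pair are partly the same measurement. Across the 19 exonic rows with 100 or more reads, Spearman's rho between the log2 ratios of hairpin and host was 0.65, a description over rows that share the same libraries and in part the same reads.

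Rows that differed from their host were found in both directions. The hairpin was above its host in 10 of 73 rows, 3 exonic (Mir3064, Mir8094 and Mir6925) and 7 intronic (Mir99a, Mir496a, Mir1904, Mir3060, Mir3095, Mir3058 and Mir3092), and below it in 6 (Mir6546, Mir5117, Mir7225, Mir5125, Mirlet7e and Mir1192). Mir3064 relative to Ddx5 was 1.27 (1.11 to 1.44) in Dicer cKO and 1.22 (1.08 to 1.39) in ScxHt, each over Control. Mir8094 relative to Ddx39b was 1.30 (1.06 to 1.61) and 1.33 (1.09 to 1.63), so the Control library was the low one for both rows. Of the intronic rows, Mir1904 in Pde4d had 12, 3 and 31 reads, Mir3060 in Rnf215 had 9, 11 and 26, and Mir3092 in Fndc3b had 4, 13 and 16. These 3 rows, Mir335 and Mir6236 had the highest Dicer cKO/Control ratios among rows with a baseMean of 10 or more, 2.68 to 4.15. The small RNA reads of Mir1904 and Mir3092 were 0 in every library, and Mir3060 had 5, 1 and 3. Mir1192, in an intron of the transcription factor gene Klf9, had the lowest ratio, 0.281 (0.124 to 0.576), with 37, 19 and 10 reads, and was at 0.379 (0.168 to 0.779) relative to Klf9. Mirlet7e at 0.396, Mir323 at 0.452, Mir679 at 0.467 and Mir540 at 0.476 were next lowest. Mir540 had 24, 9 and 11 RNA-seq reads, and its interval of 0.210 to 1.01 held 1.

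Per length, hairpin rows were found on both sides of their hosts. In the Control library the RPKM of the hairpin row divided by that of its host had a median of 1.71 in exonic and 1.14 in intronic rows, and was below 1 in 11 of 46 exonic and 11 of 27 intronic rows. Where a read that only touches the edge of a hairpin counts for it, the RPKM of such short rows is raised. Whether such reads were counted is not given in the sources used here. Introns were not counted in the host's own length. Mir5121, which also overlaps Snord33, had 1490 RPKM where Rpl13a had 128, and Mir99a had 35.0 RPKM where Mir99ahg had 7.53. Below its host, Mir3092 had 2.57 RPKM in the Control library where Fndc3b had 25.4.

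**Figure D4:**
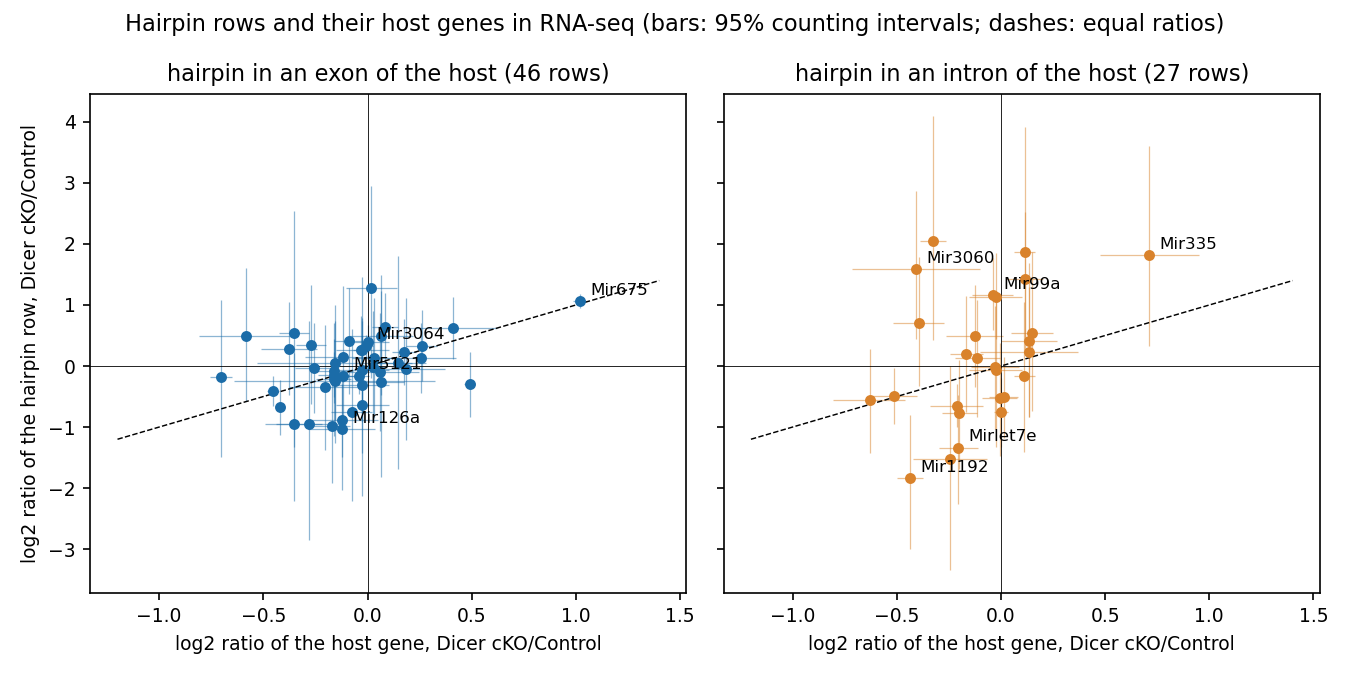
Log2 Dicer cKO/Control ratio of the hairpin row (y axis) against that of its host gene (x axis) for 46 exonic and 27 intronic rows; bars are 95% counting intervals and the dashed line marks equal ratios. Mir675 lies on the line beside H19 at the upper right, and intronic rows such as Mir99a and Mir1192 lie above and below it.

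The Dlk1-Dio3 region of chromosome 12 holds a large imprinted array of miRNA genes between the noncoding RNAs Meg3 and Mirg, and 25 of the 107 rows lay in it. Together they had 786, 597 and 807 reads in Control, ScxHt and Dicer cKO. Pooled, ScxHt/Control stood at 0.728 (0.653 to 0.811), Dicer cKO/Control at 1.07 (0.965 to 1.18) and Dicer cKO/ScxHt at 1.49 (1.34 to 1.66), so the ScxHt library was the low one. Without Mir1906-1, the row in an exon of Meg3, Dicer cKO/Control was 1.126 (1.004 to 1.263). ScxHt/Control was then 0.743 (0.656 to 0.842), still low in ScxHt. The long noncoding RNAs of the region were low in the same library: Meg3 had 7033, 5822 and 6574 reads, Rian 6308, 5820 and 6566, and Mirg 1024, 767 and 969, with ScxHt/Control ratios of 0.793, 0.884 and 0.718. For ScxHt/Control 0 of the 25 hairpin intervals lay above 1 and 9 below, beside 22.5% and 21.1% of all rows with 30 or more reads. For Dicer cKO/Control 5 lay above and 4 below, near the 19.6% and 24.2% of all such rows. In small RNA-seq 18 genes of the region passed the minimum, with 4 intervals above and 6 below 1 for ScxHt/Control, near the 24.4% and 32.8% of all small RNA rows. For Dicer cKO/Control 8 lay above and 4 below, beside 31.1% and 31.7%. Mir323 (23, 2 and 10 RNA-seq reads) was the row with the lowest ScxHt/Control ratio, 0.0833 (0.00952 to 0.337), while its small RNA ratio was 1.4 (0.889 to 2.22). Mir433, opposite the imprinted gene Rtl1, had 66, 55 and 100 RNA-seq reads, and reads of Rtl1 cannot be told apart from it without strand. Mir673 had 32, 17 and 15 RNA-seq reads, and Mir539 had 11, 21 and 27.

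**Figure D5:**
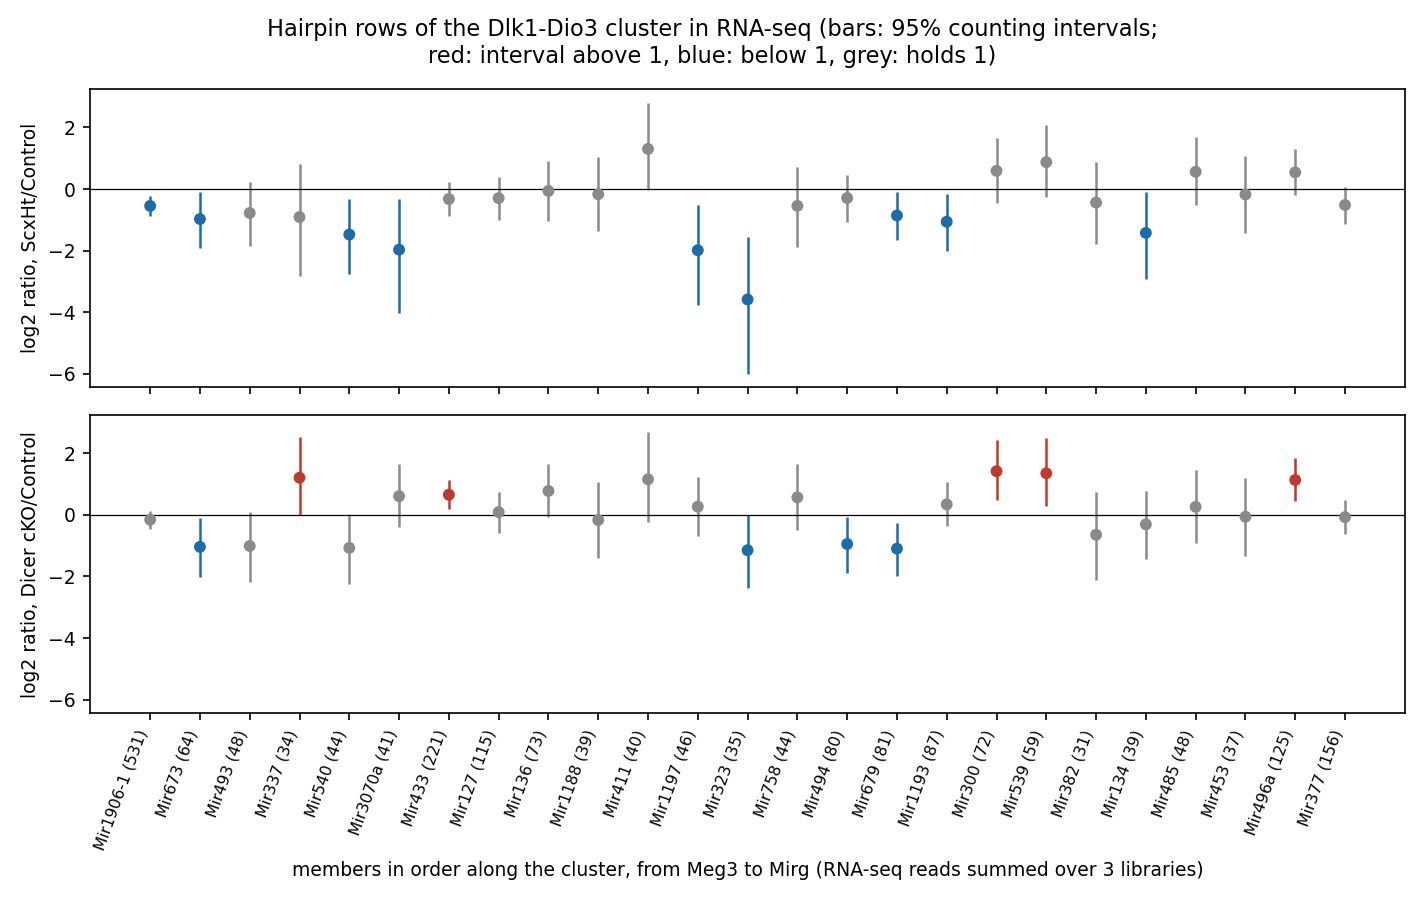
Log2 ratio of RNA-seq reads for the 25 hairpin rows of the Dlk1-Dio3 region, in order from Meg3 to Mirg with the summed reads of each in parentheses, for ScxHt/Control (top) and Dicer cKO/Control (bottom); bars are 95% counting intervals, drawn red above 1 and blue below 1. For ScxHt/Control 9 bars are blue and 0 red, and for Dicer cKO/Control 4 are blue and 5 red.

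The let-7 genes were abundant as small RNAs and sparse as hairpins. Mirlet7f-1 had 40, 45 and 35 RNA-seq reads against 338324, 239071 and 221061 small RNA reads, with Dicer cKO/Control ratios of 0.909 (0.560 to 1.47) and 0.749 (0.745 to 0.753). Mirlet7a-2 had 19, 18 and 20 RNA-seq reads against 354409, 314690 and 281882, and Mirlet7d had 4, 17 and 9 against 21838, 26151 and 20589. Pooled over the 4 let-7 rows, Mirlet7e included, 105, 94 and 80 RNA-seq reads gave a Dicer cKO/Control ratio of 0.791 (0.584 to 1.07). The 2 neighbours Mirlet7f-1 and Mirlet7d, which share the annotated host 6720427I07Rik, did not move together, since Mirlet7d had most reads in ScxHt and Mirlet7f-1 nearly the same number in all 3 libraries.

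Of the miRNAs known from striated muscle, Mir1a-1, Mir133b and Mir133a-2 were among the 107 rows. Their small RNA reads were highest in Dicer cKO: 174274, 98934 and 266160 for Mir1a-1, 288, 243 and 358 for Mir133b and 18418, 18362 and 29599 for Mir133a-2. The hairpin rows did not show this order, with 9, 15 and 13 reads for Mir1a-1, 19, 2 and 14 for Mir133b and 16, 0 and 16 for Mir133a-2. Mir1a-1 and Mir1a-2 had nearly the same small RNA reads in all, 539368 and 539439, so these reads can be shared between both loci. Pooled, the 3 rows had 44, 17 and 43 RNA-seq reads, a Dicer cKO/Control ratio of 1.01 (0.651 to 1.58). The pooled ScxHt/Control ratio was 0.370 (0.198 to 0.661) and that of Dicer cKO/ScxHt 2.79 (1.56 to 5.21), although Mir1a-1 had its most reads in ScxHt. Set against the limit of 3 reads that the 0 in ScxHt allows, Mir133a-2 stood 5.57-fold higher in Control and 5.88-fold higher in Dicer cKO. These folds leave out the counting error of the 16 reads, so the true difference can be smaller. Summed RPKM of the 10 skeletal muscle genes was 5777 in Control, 4175 in ScxHt and 10499.6 in Dicer cKO, and the part of muscle tissue in these values was not tested. In bulk tissue a larger share of a cell type and more RNA per cell cannot be told apart. Mir143, known from vessel smooth muscle, had 55, 63 and 39 RNA-seq reads and 76466, 64432 and 54279 small RNA reads.

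Genes for miRNA processing and silencing were counted by the same thresholds. A list of 27 symbols for miRNA processing and silencing, 3 of them second names, had 24 rows, and 22 passed the minimum baseMean of 50, of which 0 exceeded 1/0.60 and 0 were below 0.60 for Dicer cKO/Control, with a median log2 ratio of 0.01. With 3.92% and 4.17% of all rows past these thresholds, 0 of 22 is near the share of all rows. Drosha had 881, 1043 and 863 reads, and Dgcr8 had 445, 628 and 487. Xpo5, which encodes exportin 5, had 607, 641 and 462 reads, a ratio of 0.790 (0.699 to 0.894). Ago2, which encodes the slicing Argonaute, had 2647, 2475 and 2292. Ddx5, a cofactor of DROSHA and the host of Mir3064, had 14819, 14760 and 14180. For ScxHt/Control 1 of the 22 exceeded 1/0.60, beside 3.07% of all rows tested.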

How the data were processed

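Total RNA of Achilles tendon (1 library per genotype and assay, 6 in all) was sequenced as RNA-seq and small RNA-seq. By the study's methods and the submitters' processing notes, the authors trimmed adaptors, mapped reads with TopHat and Bowtie2 (GRCm38, mm10) and counted reads per gene by HTSeq. Versions, annotation release, read division and strand setting are not given in the sources used here. The authors deposited raw read counts per gene and, for each library, RPKM values.

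Counts were used as deposited, including 463 repeated lines. Size factors of the 2 libraries compared came from DESeq2 1.42.0 (R 4.3.3), and edgeR 4.0.16 (TMM) was an alternative. Ratios, 95% Clopper-Pearson intervals and figures used Python 3.11.15, numpy 2.4.6, scipy 1.17.1, pandas 2.3.3 and matplotlib 3.10.9. Following the study, ratios above 1/0.60 or below 0.60 were called at a baseMean above 50 (RNA-seq) or 15 (small RNA-seq). Intervals relative to hosts are conditional odds ratio intervals. Calls were tested on simulated data.

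Positions are of GENCODE vM21 on GRCm38, and a host is an annotated gene over the hairpin on the same strand. Named rows were the 10 with most reads, at a baseMean of 10 or more the 5 with the highest and the 5 with the lowest ratio of Dicer cKO over Control, rows with opposite intervals in both assays, 3 rows on each side of the read limit, and muscle, let-7 and vessel miRNAs. Other rows were named after their values were seen. The members and lists were chosen with earlier results of these data known. Schwann cell and cartilage and bone lists were also counted: for Dicer cKO/Control all 6 Schwann cell genes that passed the minimum had intervals above 1, and all 4 cartilage and bone genes below 1. Of all rows with 30 or more reads, 19.6% and 24.2% did so.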

Additional observations from a re-analysis of the deposited data

How the results depend on the processing

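Of 104 values recomputed under 13 alternatives for 10 results, 85 stayed within 1.5 times the count or inside the middle gene's counting interval, and 19 moved. That interval is of 1 gene and held a log2 ratio of 0 for every median, so a change of sign could not count as a reversal. With TMM, total counts, or total counts without features above 1% of a library, the rows lower in Dicer cKO/Control were 1 instead of 2, as also with rows that share reads left out. With thresholds of 2 and 0.5, or the whole interval past the threshold, they were 0. With minimum baseMean 10 the higher and lower rows were 17 and 15, and with none 19 and 17. Without the rows that share reads, 5 rows remained above the minimum and their median log2 ratio for Dicer cKO/Control was -0.49 instead of 0.03. Genes with the hairpin below and the small RNA above 1 were 4, but 0 with rows of 100 or more reads, 7 with rows of 10 or more, and 1 (Mir323) where both ratios had to pass 1/0.60 and 0.60. Under TMM and both total count scalings they were also 4, with Mirlet7e in place of Mir323. Genes with the hairpin above and the small RNA below 1 were 1 for Dicer cKO/Control under every alternative but rows of 10 or more reads, which gave 2 (Mir99a and Mir668). For ScxHt/Control that setting gave 1 (Mir700) instead of 0, and for Dicer cKO/ScxHt it gave 5 instead of 3. The latter count was 1 without rows that share reads and 0 where both ratios had to pass the thresholds. The median log2 ratios changed sign in 2 recomputed values, the -0.49 above and the small RNA median with rows of 100 or more reads (-0.08). Mir99a was in the count under every alternative for Dicer cKO/Control. A pseudocount gave no value for the results that rest on intervals. No paired analysis was possible because each genotype had 1 library per assay. Single libraries and few reads per row limit all of these values: at 10 reads against 10, only a 2.3-fold difference would leave the interval.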
